A study of Rattus norvegicus with 8 samples.

Results

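The mitochondrial respiratory chain passes electrons from NADH and succinate to oxygen through complexes I to IV, and the proton gradient it builds drives the ATP synthase, complex V. Neurons draw most of their ATP from this machinery, and the hippocampus, with its dense synapses, depends on it. The genes described here are the nuclear genes for its subunits and for some of its assembly factors. They were taken as all non-control array probes whose RefSeq accession named a gene with a symbol starting Nduf, Sdha, Sdhb, Sdhc, Sdhd, Uqcr, Cox4, Cox5, Cox6, Cox7, Cox8 or Atp5, or the gene Cyc1. This gave 80 of 41012 probes, for 70 of the 12206 genes that could be named. Complex I had 27 genes, complex II 3, complex III 6, complex IV 14, complex V 15, and 5 were assembly factors. No probe was named Sdhb, Cyc1, Cox7a1 or Ndufa4.

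The arrays came from 4 male Wistar rats fed standard CE-2 feed with 0.1% coral calcium hydride (CCH), a hydrogen-treated coral calcium powder, and from 4 male Wistar rats fed CE-2 alone (control). The rats were put on their feeds at 6 weeks of age and killed at 8 weeks. The free-text sample descriptions instead name a hemiparkinsonian model with saline or L-DOPA injections, which the titles, treatment labels and design text do not, and grouping here goes by title and treatment label. Hippocampi were homogenised, and each rat gave 1 single-colour Agilent array, so all hippocampal cell types contribute to each value. In such bulk tissue fewer cells of a type and less RNA per cell cannot be told apart.

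Levels below are log2 signals relative to the 75th percentile of the same array, a scale on which 0 is that percentile and each probe has its own sensitivity. Between 33091 and 34643 of 43379 spots per array were well above background, and the 75th percentile ran from 642 to 882 intensity units on CCH arrays and from 563 to 700 on control arrays. The CCH arrays shared 1 slide and scan and the control arrays another, so slide and feed cannot be told apart in any difference below. CCH replicate 1 stood apart, with an array weight of 0.184 against 0.831 to 1.81 on the other 7 arrays. Of 14 hippocampal neuron markers 12 were on the array and 10 were tested, among them Prox1 of dentate granule cells and Wfs1 of CA1, both well above background on all 8 arrays. Of these 10, 9 had a positive CCH minus control difference and 1 a negative one, at a median of 0.17. Their summed level, in multiples of the 75th percentile signal, was 58.95 to 67.03 in CCH and 51.88 to 63.62 in control. Wfs1 differed by 0.57 ± 0.16 (SE, limma adjusted p = 0.159), its 4 CCH arrays all above its 4 control arrays. Other cell types moved between the arrays as well. Choroid plexus markers were lower in CCH for 12 of 12, and their summed level ran from 1.98 to 189 on CCH arrays and from 35.5 to 256 on control arrays, in multiples of the 75th percentile signal. Kl and Slc4a5 were well above background on 2 of 4 CCH arrays. Oligodendrocyte markers were higher for 11 of 12 (sums of 306 to 406 in CCH and 282 to 341 in control) and microglia markers lower for 11 of 14 (50.5 to 61.6 in CCH and 60.5 to 66.7 in control). Markers of neurons in general were higher for 7 of 12 (146 to 171 in CCH and 140 to 176 in control). Markers of fast-spiking and other interneurons were higher for 4 of 10 and lower for 6, at a median of -0.23. Their sums were 37.5 to 41.3 in CCH and 39.5 to 42.7 in control. Astrocyte markers were higher for 4 of 10 and lower for 6 (137 to 163 in CCH and 144 to 164 in control). The part of these cell types in the results below was not tested.

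Genes of this group are known targets of the transcription factors NRF1, GABP (of the ETS family) and YY1, which act with the coactivators PGC-1alpha and PGC-1beta. RefSeq promoters of the GRCr8 build, 250 bases before to 50 after the gene's start, were at hand for 63 of the 70 genes. The NRF1 motif was found on either strand in 13 of 63 (20.6%), against 4.25% of all 33469 promoters. Those 33469 were not limited to genes on the array or expressed in hippocampus, and base composition was not matched. The ETS letters CCGGAAG were in 20 (31.7%, against 8.75% of all) and the YY1 letters AAGATGGC in 10 (15.9%, against 3.17%). At least 1 of the 3 was in 36 members (57.1%, against 14.6% of all promoters). Other spellings were also searched. The palindromic NRF1 form was in 5 members (7.94%, against 0.852% of all promoters). The ETS form ACTTCCGG was in 7 (11.1%, against 3.81%) and the YY1 form AANATGGCG in 9 (14.3%, against 3.01%). Since these letters overlap the first forms, the counts are not independent. A match is a description of letters and not a shown binding site. The promoters of 3 genes whose values are given below are shown 5′ to 3′, with matches to the 3 motifs in capitals. Ndufv3 (chr20:9613536-9613835, plus strand) holds 1 NRF1 match, Atp5me (chr14:1464610-1464909, plus strand) holds a match to each of the 3, in the order YY1, NRF1, ETS, and Cox8b (chr1:205408224-205408523, minus strand) holds none.
Ndufv3 promoter: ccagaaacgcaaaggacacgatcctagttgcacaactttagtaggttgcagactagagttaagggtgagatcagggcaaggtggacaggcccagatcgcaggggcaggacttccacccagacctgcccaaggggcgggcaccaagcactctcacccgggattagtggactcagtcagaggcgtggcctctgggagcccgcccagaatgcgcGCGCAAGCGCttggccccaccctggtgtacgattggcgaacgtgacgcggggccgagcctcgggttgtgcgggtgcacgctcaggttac
Atp5me promoter: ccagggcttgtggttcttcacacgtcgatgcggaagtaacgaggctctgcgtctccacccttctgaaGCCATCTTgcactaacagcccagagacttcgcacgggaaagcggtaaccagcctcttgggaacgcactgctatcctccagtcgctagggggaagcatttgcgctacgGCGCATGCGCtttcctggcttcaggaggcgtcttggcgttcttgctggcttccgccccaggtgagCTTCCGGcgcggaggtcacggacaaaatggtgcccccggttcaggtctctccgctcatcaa
Cox8b promoter: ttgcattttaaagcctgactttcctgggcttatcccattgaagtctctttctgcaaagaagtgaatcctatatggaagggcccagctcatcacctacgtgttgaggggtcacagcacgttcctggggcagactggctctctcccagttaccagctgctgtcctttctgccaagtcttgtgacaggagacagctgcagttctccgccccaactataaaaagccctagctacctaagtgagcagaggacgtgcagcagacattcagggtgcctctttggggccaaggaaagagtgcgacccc

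Across the respiratory chain the transcripts stood at nearly the same level in both groups. Of the 80 probes 78 passed the detection filter (well above background on at least 4 of 8 arrays), and limma called 1 of them at an adjusted p under 0.05, a probe of Ndufc2 that was higher in CCH. Over all 31618 tested probes 0.174% were called, 0.0759% higher and 0.098% lower in CCH. At an unadjusted p under 0.05 there were 3 member probes, all higher in CCH (Ndufc2, Ndufv3 and Cox4i2), where 15.4% of all tested probes reached it and 8.79% did so with CCH higher. The 68 genes with a tested probe, each read from its brightest probe, had a median log2 difference of -0.05, against 0.03 over all tested probes, and 46 of them (67.6%) lay below 0, against 44.9% of all probes. The other 22 lay above 0, as did 55.1% of all probes. The sizes were small. The median absolute difference was 0.08 for the member genes and 0.15 for all tested probes, and the median residual SD between arrays of a group was 0.15 and 0.20. For 60 of the 68 genes (88.2%) the 95% interval of the difference lay within 0.5 log2 units of 0, as it did for 49.7% of all tested probes. The tested named genes numbered 9741. Each also read from its brightest probe, they had a median difference of 0.02, with 4566 below 0. Their median absolute difference was 0.14 and their median residual SD 0.18, and 56.3% of their intervals lay within 0.5 of 0.

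**Figure D1:**
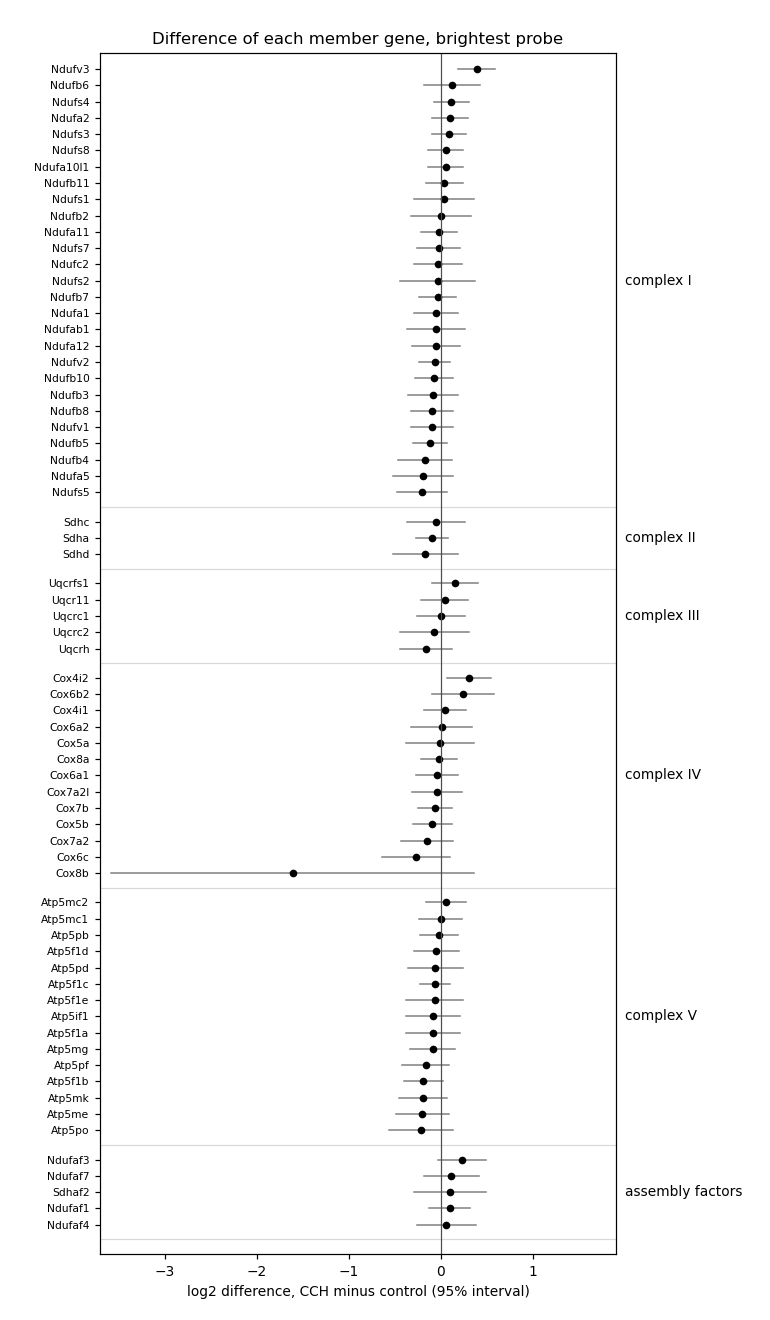
Log2 difference between CCH and control for the 68 member genes with a tested probe (points, brightest probe per gene) with 95% intervals (lines), grouped by complex from top to bottom. Most intervals cross 0 and lie within 0.5 of it; Ndufv3 and Cox4i2 lie above 0, and Cox8b stands at -1.61 with an interval of -3.58 to 0.36.

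The share below 0 was smaller without CCH replicate 1. Then 35 of 68 genes (51.5%) lay below 0 with a median of -0.00, against 42.6% of all tested probes with a median of 0.04. With normexp background correction 41 of 68 genes (60.3%) lay below 0, and so did 63.4% of all tested probes, whose median then moved to -0.07. On the reported scale, without normexp, 31 of the 68 genes (45.6%) had their lowest value of all 8 arrays on CCH replicate 1. The same held for 28.2% of all tested probes. Averaged as deviations from each gene's mean over 8 arrays, the 68 genes were at -0.10, -0.08, 0.06 and 0.03 on CCH replicates 1 to 4, against -0.02, 0.04, 0.04 and 0.04 on control replicates 1 to 4. The groups overlapped, with CCH replicates 1 and 2 below all controls and CCH replicates 3 and 4 not. These averages include Cox8b, which varied widely between arrays. Without Cox8b the complex IV average was -0.11, -0.04, 0.05 and 0.08 on CCH replicates 1 to 4. With it the values were -0.11, -0.22, 0.15 and -0.09. The complexes did not share 1 array order. On CCH replicate 1 complex II genes averaged -0.33, complex V -0.20, complex III -0.18, complex IV -0.11 and complex I -0.07, while the assembly factors averaged 0.23.

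**Figure D2:**
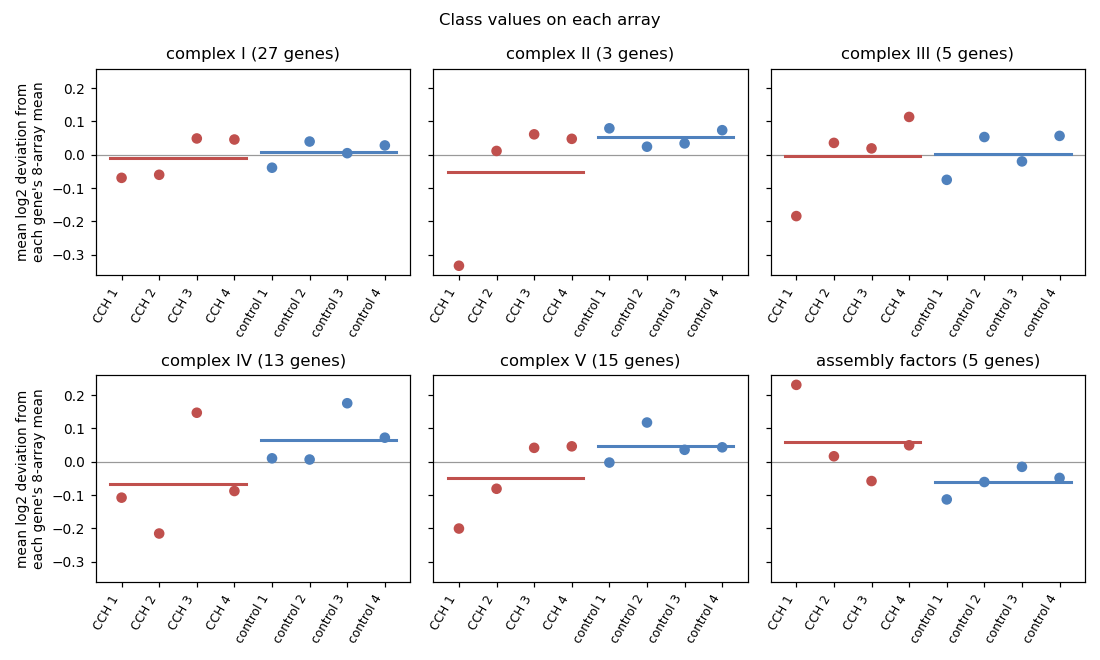
Mean log2 deviation of each class of genes from its genes' 8-array means on the 4 CCH arrays (red, left) and 4 control arrays (blue, right), with lines at the group means. CCH replicate 1 is lowest in complexes I, II, III and V and highest among the assembly factors.

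Complex I, the NADH dehydrogenase, had 27 tested genes, of which 10 were higher and 17 lower in CCH, with a median log2 difference of -0.04 and a range of -0.21 to 0.39. None passed the threshold on its brightest probe. Without CCH replicate 1, and also with normexp, the split was 14 higher and 13 lower. The core subunits that carry flavin and iron-sulphur clusters differed little. Ndufs1, the large iron-sulphur subunit, was at 1.53 ± 0.28 in CCH and 1.50 ± 0.09 in control (SD, n = 4 each), a difference of 0.03 with a 95% interval of -0.29 to 0.36. Ndufv1, which binds the flavin and accepts electrons from NADH, differed by -0.10 (interval -0.33 to 0.13). Ndufs4, an accessory subunit whose loss causes a Leigh-like encephalopathy in mice, differed by 0.11 and Ndufa2 by 0.10 (0.01 on its other probe).

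Ndufv3, an accessory subunit of the NADH-binding module, was the member gene highest in CCH on its brightest probe. Its levels were 3.33, 3.27, 3.41 and 3.30 on CCH replicates 1 to 4, against 2.95, 2.90, 3.08 and 2.82 on control replicates 1 to 4. Every CCH array lay above every control array. The difference was 0.39 ± 0.09 (SE, a 1.31-fold ratio, adjusted p = 0.0936), which missed the threshold. It ran from 0.35 to 0.44 over the alternatives and passed the threshold with array weights (adjusted p = 0.0420). Among all tested probes 6.59% had groups that did not overlap with CCH higher and 4.7% with CCH lower. Among the 78 member probes there were 4 with CCH higher, those of Ndufc2, Ndufv3, Cox4i2 and Ndufaf3, and 1 with CCH lower, that of Atp5f1c at -0.07, a gene named after its value was seen.

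Ndufc2, a small membrane-arm subunit of complex I, had 2 probes that gave different answers. On probe A_44_P356344 it rose in CCH, with levels of -3.31, -3.39, -3.51 and -3.62 on CCH replicates 1 to 4, against -4.28, -4.36, -4.36 and -4.29 on control replicates 1 to 4. The groups were separate, and the difference was 0.86 ± 0.09 (SE, 1.82-fold, limma adjusted p = 0.0271). With normexp background correction, which added an offset of 50 intensity units, it was 0.30 (adjusted p = 0.0787). An added offset makes log2 differences smaller, most so for dim probes such as this one. The call also ended on removal of each array but CCH replicate 1, with differences of 0.84 to 0.92. It ended as well with replicate number fitted as a block (adjusted p = 0.172) and without CCH replicates 2 and 4 (adjusted p = 0.222). On probe A_43_P14167, which carries the same RefSeq accession, the levels were 4.94, 5.19, 5.26 and 4.83 on CCH replicates 1 to 4, against 5.07, 4.99, 5.14 and 5.13 on control replicates 1 to 4. Those groups overlapped, and the difference was -0.03 ± 0.11 (SE, interval -0.29 to 0.23). Where on the transcript either probe lies was not analysed here. Of the other 7 member genes with more than 1 tested probe none had probes that differed by over 0.5.

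**Figure D3:**
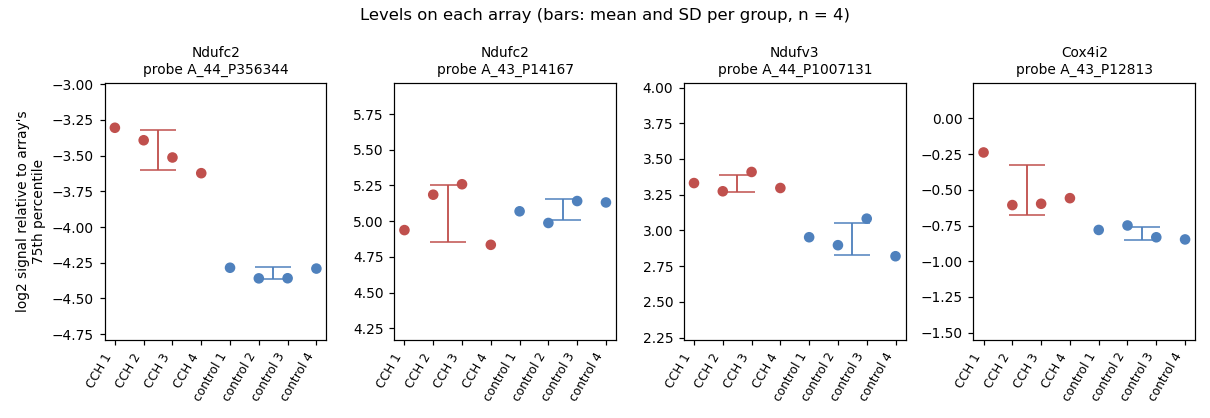
Log2 level relative to the array's 75th percentile on the 4 CCH arrays (red, left) and 4 control arrays (blue, right) for both Ndufc2 probes, Ndufv3 and Cox4i2, with mean and SD per group beside the points, on axes of equal span. CCH arrays lie above control arrays in 3 panels and overlap them for Ndufc2 probe A_43_P14167.

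The complex I genes below 0 with the smallest p-values, Ndufs5, Ndufa5 and Ndufb5, had groups that overlapped. Ndufs5, an accessory subunit on the intermembrane side, was at 4.32, 4.62, 4.81 and 4.71 on CCH replicates 1 to 4, against 4.77, 4.96, 4.76 and 4.78 on control replicates 1 to 4. The difference was -0.21 ± 0.12 (SE), and it was -0.11 without CCH replicate 1 and -0.16 without control replicate 2. Ndufa5 differed by -0.20 ± 0.14 and Ndufb5 by -0.12 ± 0.08 (SE). Ndufa5 lay between 5.23 and 5.82 in CCH and between 5.69 and 5.94 in control, so its CCH range reached into that of the controls.

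Complex II, succinate dehydrogenase, also serves the citric acid cycle and is encoded wholly in the nucleus. Its 3 measured genes were all lower in CCH, and none passed the threshold. Sdha, the flavoprotein, was at 5.43, 5.37, 5.34 and 5.42 on CCH replicates 1 to 4, against 5.53, 5.46, 5.54 and 5.40 on control replicates 1 to 4. The arrays of the groups overlapped, and the difference was -0.09 (95% interval -0.27 to 0.08). The membrane anchors Sdhc and Sdhd differed by -0.05 and -0.17. CCH replicate 1 held the lowest value of both, at 2.43 for Sdhc and 4.15 for Sdhd. Without it Sdhc was at 0.09 and the median of the 3 genes moved to -0.02, against -0.09 with all arrays.

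Complex III, the cytochrome bc1 complex, passes electrons from ubiquinol to cytochrome c. Of its 5 tested genes 2 were higher and 3 lower, with a median of 0.00. The Rieske iron-sulphur protein gene Uqcrfs1 was at 4.18 ± 0.16 in CCH and 4.03 ± 0.12 in control (SD, n = 4 each), a difference of 0.15 ± 0.11 (SE, adjusted p = 0.570). Uqcrh, the hinge protein, differed by -0.16 ± 0.12 (SE, adjusted p = 0.593). The core proteins Uqcrc1 and Uqcrc2 were at 0.00 and -0.07, and the small subunit Uqcr11 at 0.04. Uqcrc2 was at 3.67 on CCH replicate 1 and between 4.30 and 4.42 on the other 3 CCH arrays, against 4.17 to 4.31 in control, and without that array its difference was 0.10. The median of the class was then also 0.10. The ubiquinone-binding subunit gene Uqcrq was not tested. Its 1 probe was well above background on 0 of 4 CCH arrays and 2 of 4 control arrays, with levels of -7.33 to -8.04 in CCH, against -3.75, -7.89, -7.78 and -6.97 on control replicates 1 to 4.

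Complex IV, cytochrome c oxidase, reduces oxygen, and several of its nuclear subunits come in ubiquitous forms and in forms known from lung, heart, skeletal muscle or testis. Of 13 tested genes 4 were higher and 9 lower, with a median of -0.04. The ubiquitous forms differed little. Cox4i1 was at 4.39, 4.32, 4.46 and 4.56 on CCH replicates 1 to 4, against 4.22, 4.53, 4.45 and 4.36 on control replicates 1 to 4. The groups overlapped, with a difference of 0.04 (95% interval -0.18 to 0.27). Cox6a1 differed by -0.04 and Cox8a by -0.02 (interval -0.22 to 0.18). The small subunit genes Cox6c and Cox7a2 differed by -0.27 ± 0.16 and -0.15 ± 0.12 (SE). Their lowest values, 5.45 for Cox6c and 4.79 for Cox7a2, were again on CCH replicate 1, and without it Cox6c was at -0.11.

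Cox4i2, the oxygen-responsive form of subunit 4 known best from lung, was at -0.24, -0.61, -0.60 and -0.56 on CCH replicates 1 to 4, against -0.78, -0.75, -0.83 and -0.85 on control replicates 1 to 4. The CCH arrays lay above all controls, with CCH replicate 1 the highest. The difference was 0.30 ± 0.10 (SE, adjusted p = 0.222) and 0.21 without CCH replicate 1. In brain this form is known from pericytes. Endothelial and pericyte markers were higher for 6 of 11 and lower for 5, with summed levels of 18.8 to 22.3 in CCH and 15.4 to 26.8 in control. Cox6b2, known from testis, differed by 0.24 ± 0.15 (SE, adjusted p = 0.490), and the heart and muscle form Cox6a2 by 0.01. Both were well above background on all 8 arrays. The testis form Cox8c was well above background on none of the 8 and was not tested.

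Cox8b, a heart and muscle form of subunit 8, had the widest range over the arrays among the 68 tested member genes. Its levels were -0.96, -3.19, 0.38 and -2.95 on CCH replicates 1 to 4, against 0.17, -1.67, 0.93 and 0.27 on control replicates 1 to 4. The range over 8 arrays was 4.12 log2 units, where the other 67 tested genes spanned 0.15 to 0.81 on their brightest probes. CCH replicates 2 and 4 were lowest, control replicate 2 next, and the groups overlapped. The difference was -1.61 ± 0.86 (SE, adjusted p = 0.426). It was -0.22 without CCH replicates 2 and 4, the arrays with its 2 lowest values, so the smaller size follows from which arrays were left out. The choroid plexus gene for transthyretin, Ttr, had its low values on the same 3 arrays, at 6.47, 1.09, 7.34 and 0.56 on CCH replicates 1 to 4, against 7.66, 4.95, 7.79 and 7.20 on control replicates 1 to 4. The choroid potassium channel gene Kcnj13 was at 1.13, -2.30, 2.09 and -3.96 on CCH replicates 1 to 4, against 2.80, -0.72, 2.67 and 1.78 on control replicates 1 to 4. The 12 choroid markers averaged 1.32, -3.57, 1.59 and -3.74 on CCH replicates 1 to 4 as deviations from their 8-array means, against 2.11, -0.68, 1.77 and 1.21 on control replicates 1 to 4. Cox8a stayed between 6.37 and 6.65 on all 8 arrays.

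**Figure D4:**
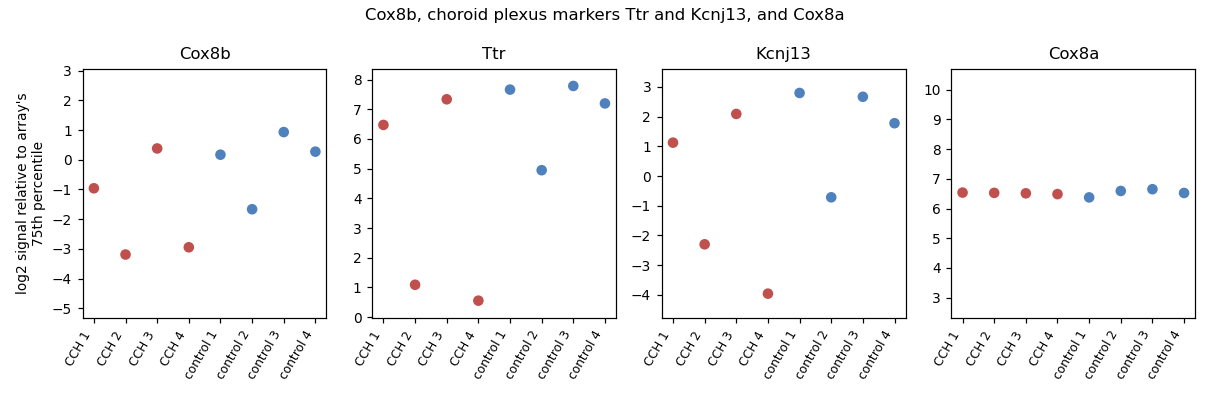
Log2 level relative to the array's 75th percentile for Cox8b, the choroid plexus markers Ttr and Kcnj13, and Cox8a on the 4 CCH arrays (red, left) and 4 control arrays (blue, right), on axes of equal span. CCH replicates 2 and 4 and control replicate 2 are low for Cox8b, Ttr and Kcnj13, and Cox8a is level over all arrays.

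Complex V, the ATP synthase, had 14 of 15 genes below 0, against 44.9% of all tested probes. The median was -0.09 and the range -0.22 to 0.05. None passed the threshold, where 0.098% of all tested probes were called lower. None reached an unadjusted p under 0.05, where 6.59% of all tested probes did so with CCH lower. Without CCH replicate 1 the split was 10 lower and 5 higher, with a median of -0.02. The catalytic beta subunit gene Atp5f1b was at 4.46, 4.50, 4.39 and 4.48 on CCH replicates 1 to 4, against 4.80, 4.72, 4.50 and 4.57 on control replicates 1 to 4. The groups touched at 4.50, and the difference was -0.19 ± 0.09 (SE, adjusted p = 0.375). The alpha subunit gene Atp5f1a differed by -0.09 (95% interval -0.38 to 0.21). The membrane subunit e, Atp5me, was at 7.19, 7.46, 7.66 and 7.66 on CCH replicates 1 to 4, against 7.56, 7.66, 7.76 and 7.78 on control replicates 1 to 4. CCH replicate 1 was lowest there too, and the difference was -0.20 ± 0.13 (SE). Atp5mk, a small membrane subunit also known as DAPIT, differed by -0.19 ± 0.11 (SE), and Atp5po, the stalk protein OSCP, by -0.22 ± 0.15 (SE), named after its value was seen. Atp5mc2, 1 of the genes for the rotating c ring, was the 1 member above 0, at 0.05. Atp5if1, which encodes the inhibitor that stops the enzyme from hydrolysing ATP, was at 5.32 ± 0.20 in CCH and 5.41 ± 0.15 in control (SD, n = 4 each), a difference of -0.09.

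The 5 assembly factor genes were all above 0 on their brightest probes, with a median of 0.10, and none passed the threshold. Ndufaf4, named after its values were seen, was at 0.06 on that probe. Its other probes were at -0.13 ± 0.10 and 0.04 ± 0.12 (SE). With normexp, and without CCH replicate 1, 4 of the 5 genes were above 0 on their brightest probes. Ndufaf3, which helps build the ubiquinone-reducing module of complex I, was at 1.68, 1.27, 1.29 and 1.23 on CCH replicates 1 to 4, against 1.09, 1.16, 1.18 and 1.10 on control replicates 1 to 4. The groups did not overlap, CCH replicate 1 was highest, and the difference was 0.23 ± 0.12 (SE, adjusted p = 0.389). Ndufaf7, an arginine methyltransferase that acts on a complex I subunit, and Ndufaf1 differed by 0.11 and 0.09. Of the other assembly genes of the pathway, 24 of 44 listed were tested, 17 higher and 7 lower with a median of 0.05. Of these 24, 0 were called in either direction, where 0.174% of all tested probes were called. Cox20, a chaperone of subunit 2 of complex IV, was at 0.28 ± 0.14 and Cox18, which inserts that subunit into the membrane, at -0.15 ± 0.10 (SE). The other Cox18 probe was at 0.06 ± 0.20 (SE).

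No gene that feeds the chain or carries its product passed the test, which 0.174% of all tested probes did. Of 17 genes for ubiquinone synthesis and electron carriers 15 were tested, 8 higher and 7 lower with a median of 0.06 and 0 called, led by the ubiquinone synthesis genes Coq2 at 0.25 ± 0.14 and Coq8b at 0.23 ± 0.13 (SE). Of 14 genes for ATP export and energy transfer 13 were tested, 9 higher and 4 lower with a median of 0.04 and 0 called. The mitochondrial carrier gene Ucp2 was at 0.61 ± 0.20 (SE, adjusted p = 0.203) and the ADP/ATP carrier gene Slc25a5 at 0.21 ± 0.13 (SE), with 0.07 and -0.09 on its other probes. Vdac1, the outer membrane channel and named after its values were seen, had 3 probes that differed. Probe A_44_P213415 was at -0.53 ± 0.11 (SE, adjusted p = 0.0738) with groups that did not overlap, while its brightest probe was at 0.14 and the third at 0.20. Among all tested probes 4.7% had groups that did not overlap with CCH lower. None of the 13 mitochondrially encoded subunits had a named probe.

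Ppargc1a, the gene for the coactivator PGC-1alpha, fell in CCH, and no other gene of the biogenesis list passed the test. Of 21 genes for mitochondrial biogenesis and mitochondrial DNA 20 were tested, 8 higher and 12 lower with a median of -0.01. The list had 0 called higher and 1 called lower, which was Ppargc1a. Groups did not overlap for 3 of the 20 with CCH lower and 1 with CCH higher, against 4.7% and 6.59% of all tested probes. Besides Ppargc1a and Ppargc1b these were Esrrg and Polg2, named after their values were seen. Esrrg was at -0.84 ± 0.24 (SE, limma adjusted p = 0.163), well above background on 2 of 4 CCH arrays. Polg2 was at 0.28 ± 0.11 (SE, limma adjusted p = 0.267). Ppargc1a was at -2.32, -2.06, -1.97 and -2.17 on CCH replicates 1 to 4, against -1.19, -1.27, -1.54 and -1.28 on control replicates 1 to 4. Every CCH array lay below every control array, and the difference was -0.81 ± 0.11 (SE, limma adjusted p = 0.0486). The call ended on removal of each array but CCH replicate 1, with differences of -0.88 to -0.77. It also ended with median scaling (adjusted p = 0.0517) and with no detection filter (adjusted p = 0.0710). The same held with replicate number fitted as a block (adjusted p = 0.172) and without CCH replicates 2 and 4 (adjusted p = 0.314). Ppargc1b, for PGC-1beta, was at -0.36, -0.87, -1.11 and -0.67 on CCH replicates 1 to 4, against -0.20, -0.32, -0.11 and 0.01 on control replicates 1 to 4. Its groups were separate as well, with a difference of -0.60 ± 0.16 (SE, adjusted p = 0.143), and without CCH replicate 1 it was called at -0.73. Pprc1, for the related coactivator PRC and named after its value was seen, was at 0.16, 0.48, 0.45 and 0.48 on CCH replicates 1 to 4, against 0.31, 0.44, 0.44 and 0.43 on control replicates 1 to 4. The groups of Pprc1 overlapped, and the difference was -0.01 (95% interval -0.24 to 0.21). Tfam, the packaging and transcription factor of mitochondrial DNA, was at 2.04 ± 0.07 in CCH and 2.05 ± 0.10 in control (SD, n = 4 each). The difference of Tfam was -0.01 with a 95% interval of -0.21 to 0.19. No test compared the coactivators with the respiratory chain genes.

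**Figure D5:**
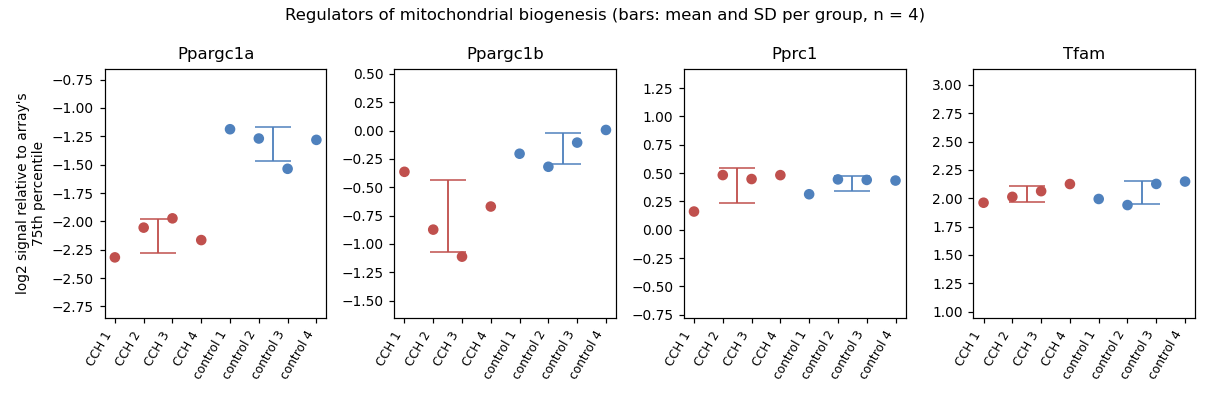
Log2 level relative to the array's 75th percentile for Ppargc1a, Ppargc1b, Pprc1 and Tfam on the 4 CCH arrays (red, left) and 4 control arrays (blue, right), with mean and SD per group, on axes of equal span. CCH arrays lie below control arrays for Ppargc1a and Ppargc1b and overlap them for Pprc1 and Tfam.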

How the data were processed

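Per the file headers and the submitters' processing notes, spot intensity came from Agilent Feature Extraction 9.5, and the deposited values are background-subtracted, detrended signals that the authors did not scale between arrays. The deposited value table holds the same signals rounded to 3 significant digits. Per the file headers each spot also has other flags of 0 or 1, for signal well above background and for outliers.

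Here each processed signal was divided by the 75th percentile of its array, computed without control spots, put on a log2 scale and averaged per probe. Outlier spots were set to missing. Probes well above background on at least 4 of 8 arrays, with at least 3 values per group, were tested with limma 3.58.1 in R 4.3.3 (two-sided, Benjamini-Hochberg over 31618 probes, threshold 0.05). Accessions were named through RefSeq's GRCr8 table, and the array grid names rn4, so no probe coordinates are given. The test was checked on simulated data with noise drawn independently for each probe and array. Its shifts were larger than the differences of nearly all members. It held no effect shared by an array or slide, so it cannot speak to such effects. Raw median spot signal replaced the mean signal, which the files do not hold, in the normexp alternative, with an offset of 50.

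The members and lists were chosen with earlier results of these data known. Named genes were called members, the 3 with the smallest p per class and direction, genes whose probes differed by over 0.5, a fixed set of 22 of which 18 were tested, and up to 2 genes per pathway list plus Ppargc1a. Arrays with the same replicate number held the same position on their slides. Nothing else shows that replicates with 1 number pair across groups. The labels name single rats, and the number of arrays limits precision. Signal shared with near-identical gene copies was not analysed here.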

Additional observations from a re-analysis of the deposited data

Results flagged for a closer look

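In groups of 4 arrays, a value was set apart where its gap to the nearest other array made up over 0.829 of the group's range, which chance gives in about 1 of 20 groups, and 7 of 88 groups had one. In CCH, replicate 1 was such an array for Cox4i2 at -0.24 (others -0.61 to -0.56), Ndufaf3 at 1.68 (others 1.23 to 1.29), Sdhc at 2.43 (others 2.95 to 3.03), Uqcrc2 at 3.67 (others 4.30 to 4.42) and the complex II average at -0.33 (others 0.01 to 0.06). In control, replicate 2 was set apart for Ndufs5 at 4.96 (others 4.76 to 4.78), and replicate 1 for the average of all 68 genes at -0.0243 (others 0.0383 to 0.0435). That average includes Cox8b, at 0.17, -1.67, 0.93 and 0.27 on control replicates 1 to 4. Whether the flag holds without Cox8b was not tested.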

How the results depend on the processing

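Every result was computed under up to 22 alternatives. A block for slide could not be fitted because slide equals feed, and the mean of a gene's probes was not run for single genes. Over all tested probes 55 were called. Other settings called 246 with normexp, 260 with cyclic loess, 29 with no detection filter, 209 with detection on all 8 arrays, 1361 with array weights, 215 with the trend and robust setting, 0 without CCH replicates 2 and 4 and 0 with the replicate block, and 0 to 708 with 1 array left out (708 without CCH replicate 1). Same-number arrays, which share a slide position, correlated at 0.146, 0.0795, -0.00482 and 0.245 in their deviations from group means. So few values cannot decide whether the numbers pair the rats. The 1 called member probe became 0 with normexp, with the replicate block and without CCH replicates 2 and 4, 2 with array weights (Ndufv3 added), and 0 to 1 with 1 array left out. In the settings with 0 member calls, 3 to 5 of 78 member probes (3.85% to 6.41%) had an unadjusted p under 0.05, against 9.9% to 20.9% of all tested probes. With 1 array left out the median of complex III ran from -0.0181 to 0.0974 and that of the assembly factors from 0.0379 to 0.182. Over 924 values of single genes under the alternatives, 859 kept direction and side of the threshold, 21 lost a call, 3 gained one and 41 changed sign, all of these within 1 SE of 0 in the reported fit. With normexp the sign changed for Cox6a1 (0.00527), Cox6a2 (-0.0675), Cox8a (0.0409), Ndufaf1 (-0.0295), Ndufc2 (0.0346) and Ndufs1 (-0.00174). With quantile normalization the sign changed for Cox6a1 (0.0878), Cox6a2 (-0.0208) and Cox8a (0.0721). With cyclic loess the sign changed for Cox6a2 (-0.0327). With median scaling the sign changed for Cox6a2 (-0.00348). With scaling to detected probes the sign changed for Cox6a2 (-0.00782). With array weights the sign changed for Cox6a2 (-0.0768), Ndufs1 (-0.0758), Sdhc (0.0647) and Uqcrc2 (0.0823). Without CCH replicates 2 and 4 the sign changed for Atp5f1a (0.00231), Ndufc2 (0.0159), Uqcr11 (-0.0231) and Uqcrc1 (0.0671). With 1 array left out at a time, the differences whose sign changed ran from -0.156 to 0.00674 for Atp5if1, from -0.0122 to 0.0887 for Cox4i1, from -0.0951 to 0.00539 for Cox6a1, from -0.088 to 0.102 for Cox6a2, from -0.073 to 0.0189 for Cox8a, from -0.0963 to 0.045 for Ndufc2, from -0.0905 to 0.111 for Ndufs1, from -0.113 to 0.0866 for Sdhc, from -0.0181 to 0.112 for Uqcr11, from -0.101 to 0.056 for Uqcrc1 and from -0.15 to 0.0974 for Uqcrc2. The cause of these changes was not tested.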
